A study of Mus musculus with 12 samples.

Results

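The 8 genes described here encode integrin subunits of fibronectin and vitronectin receptors, Itga5, Itgb1, Itgav, Itga4, Itgb3, Itgb5 and Itgb7, and with them Itga6 of a laminin receptor. They were chosen by gene symbol, with earlier results of these data known, and are 8 of the 54532 genes in the count table. All 8 had enough counts to be tested in every comparison. RNA-seq was performed in 12 libraries of bone marrow macrophages (BMMs) from wild-type C57BL/6J mice aged 2 to 3 months. The cells had been differentiated with CSF-1, the growth factor of the macrophage lineage, and plated on uncoated dishes or on dishes coated with fibronectin at 10 µg/ml. Each coating was combined for 24 h with control IgG or with a neutralizing antibody against ITGA5, both at 10 µg/ml, so that IgG and anti-ITGA5 were each applied without fibronectin and with it, and each of the 4 groups had 3 libraries. The antibody acts on the ITGA5 protein, so the design removes no gene, and the Itga5 transcript is not a check of the labels. The medium of all groups held fetal calf serum, and surface protein was not measured in these files.

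Integrins are heterodimers of an alpha and a beta subunit that bind matrix proteins outside the cell and connect to the actin cytoskeleton inside it. Alpha5 pairs only with beta1 and forms the classical fibronectin receptor of adherent cells. Alphav pairs with several beta subunits: with beta3 and beta5 it forms the vitronectin receptors, which also bind osteopontin and other matrix proteins. Alpha4 pairs with beta1 or beta7 and binds fibronectin at a site of its own, as well as VCAM1 and, with beta7, the mucosal addressin MAdCAM-1. Alpha6 pairs with beta1 as a laminin receptor. Subunit transcripts say nothing by themselves about which pairs reach the cell surface.

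Counts on genes ranged from 12954342 to 22075432 per library. The chi-square per gene between libraries of a group lay between 2.79 and 8.13 in 3 groups, but between 11.4 and 25.6 in anti-ITGA5 without fibronectin, whose replicate 2 was also the shallowest library. The macrophage markers were high in every library, with Csf1r at 322 FPKM ± 11.7 (SD, n = 3) and Adgre1 at 169 FPKM ± 3.22 (SD, n = 3) in IgG without fibronectin. FPKM are fragments scaled to gene length and to a total per library, and the total that the deposited values imply was 0.977 to 1.06 times the counts on genes. The summed FPKM of the 8 macrophage markers was 8977 to 9822 in IgG and 6129 to 7517 in anti-ITGA5 without fibronectin, and 9558 to 9759 against 7336 to 7506 with fibronectin, and Lyz2 made up most of it, with means of 7514 and 5256 FPKM without and 7809 and 5691 FPKM with fibronectin. The 10 mitotic genes summed to 118 to 152 FPKM in IgG and 341 to 398 FPKM in anti-ITGA5 without fibronectin, and to 110 to 152 against 314 to 432 FPKM with fibronectin. All 10 were called higher in anti-ITGA5 on both coatings. They had been listed because they were already known to move with the antibody in these data, so this count is not a separate result. Of the macrophage markers, 4 were lower (Lyz2, Cd68, Mertk and Itgam) and 1 higher (Cd14) on each coating, with Csf1r and Adgre1 not called. Among all genes, edgeR called 9.79% lower and 11.0% higher without fibronectin and 13.2% and 14.4% with it. Markers of dendritic cells, lymphocytes, mast cells and fibroblasts summed to at most 0.481 FPKM per list in every library. Of the 6 neutrophil markers, Ly6g was at 0 in every library and Camp and Ngp at no more than 4 counts, S100a8 was not called, and Mmp8 alone was called lower in anti-ITGA5 on both coatings, so that their sum was 21.0 to 26.3 FPKM in IgG and 13.2 to 15.4 FPKM in anti-ITGA5 without fibronectin, and 28.5 to 38.9 against 13.9 to 18.3 FPKM with it. In bulk RNA, more or fewer cells of a kind and more or less RNA per cell cannot be told apart, and the part of these shifts in the results below was not tested.

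Itgb1, the beta subunit shared by alpha5, alpha4 and alpha6, was the most abundant of the 8 transcripts per length in all 4 groups. Its level was 274 FPKM ± 9.44 (SD, n = 3) in IgG without fibronectin and its mean over the 12 libraries ranked 134 among the 13455 genes tested in the fit of all libraries. Itgb5 followed at 69.6 FPKM ± 4.06 (SD, n = 3) and Itga5 at 46.1 FPKM ± 2.57 (SD, n = 3) in the same group. Itga6 stood at 44.2 FPKM ± 0.922 (SD, n = 3), and its libraries overlapped those of Itga5 in IgG without fibronectin. Itgav was lower at 26.8 FPKM ± 1.67 (SD, n = 3), then came Itga4 at 16.1 FPKM ± 0.864 (SD, n = 3) and Itgb7 at 10.9 FPKM ± 1.15 (SD, n = 3). Itgb3 was last in every group, at 1.58 FPKM ± 0.293 (SD, n = 3) here, from only 101 to 200 counts per library over all groups. Apart from Itgb5 and Itga5 in anti-ITGA5 without fibronectin, Itga5 and Itga6 in IgG without fibronectin, and pairs that involve Itgb7, neighbours in this order did not overlap between libraries of a group.

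The order per length rests on the deposited gene lengths, which equal the union of all annotated exons. For Itga6 that length is 9025 bases while its longest annotated transcript has 4310, and for Itgav and Itga4 the figures are 10744 against 7054 and 13978 against 9767 bases. With the longest transcript as the length, Itga6 would have a mean of 86.9 FPKM over the 12 libraries and stand above Itgb5 at 68.9 and Itga5 at 54.0. Comparisons of the same gene between groups do not depend on this length.

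**Figure D1:**
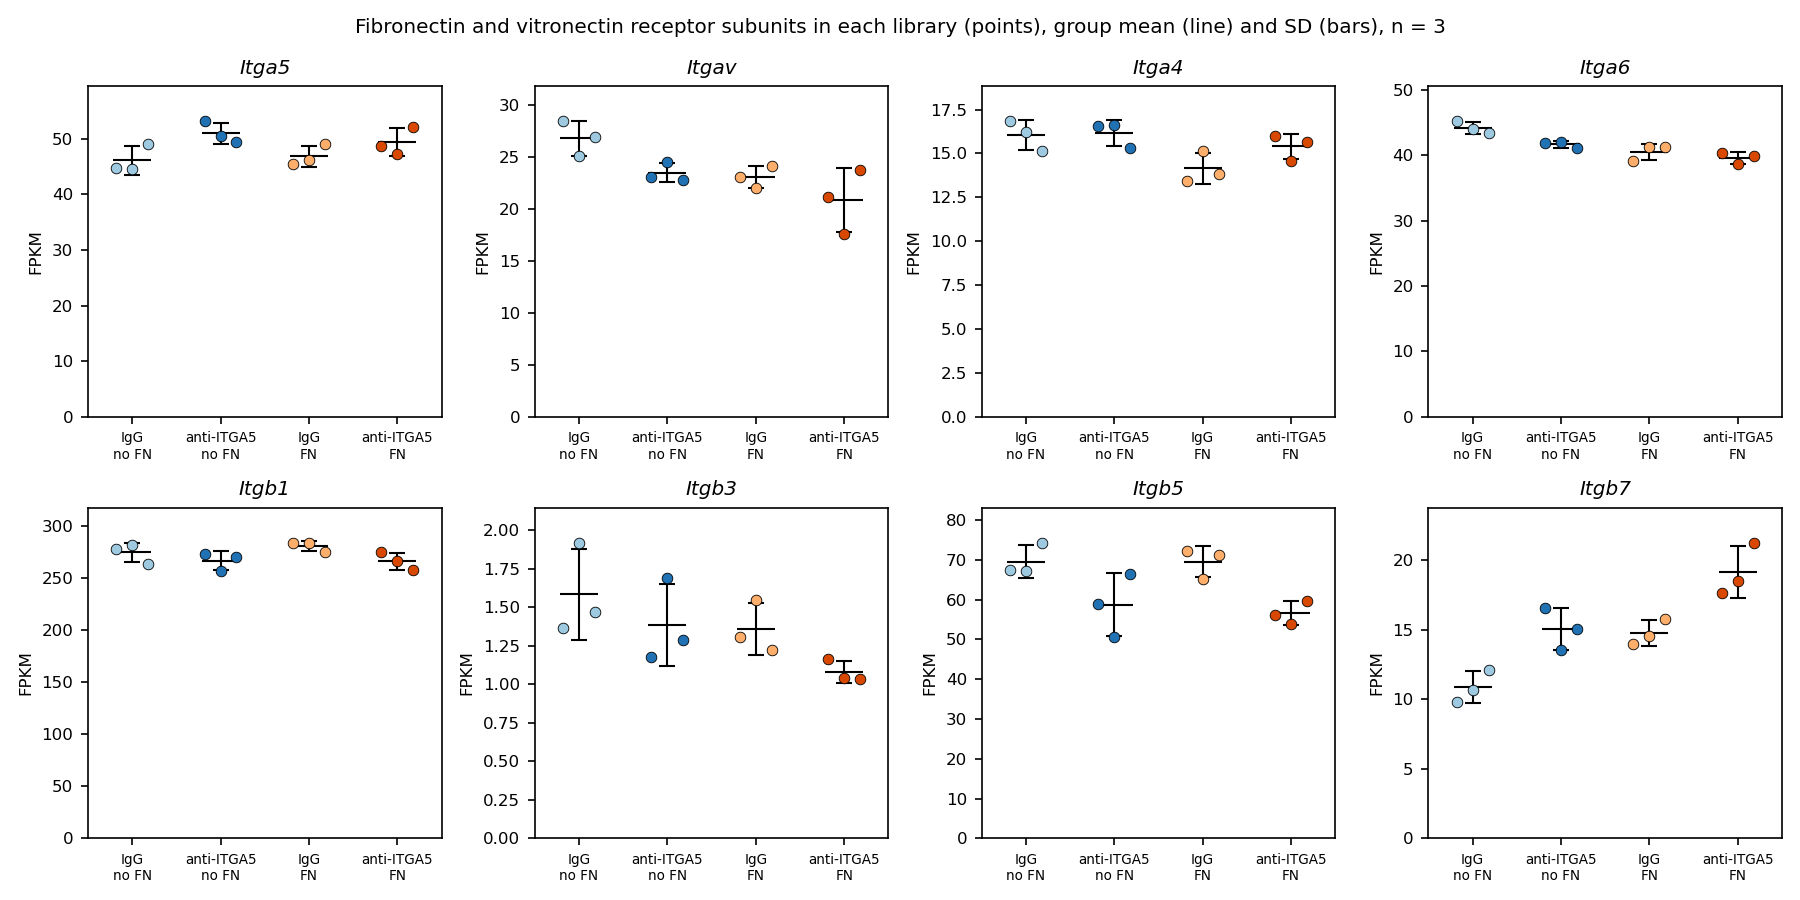
FPKM (y axis, from 0, a separate scale for each gene) of the 8 subunits in each library (points) of the 4 groups (x axis; FN, fibronectin), with the group mean (line) and SD (bars), n = 3. Itgb7 went from 10.9 FPKM in IgG without fibronectin to 19.1 FPKM in anti-ITGA5 with fibronectin, while Itgb1 stayed between 256 and 284 FPKM in all 12 libraries.

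The comparison that bears most directly on the antibody asked which subunits changed upon ITGA5 neutralization, on each coating. Only Itgb7 was called higher in anti-ITGA5 on both coatings, and Itgb5 was called lower on fibronectin. Without fibronectin 1 of the 8 subunits was called higher and 0 lower by the quasi-likelihood test of edgeR, adjusted after Benjamini-Hochberg, where 11.0% of all genes tested were called higher and 9.79% lower. With fibronectin 1 was called higher and 1 lower, beside 14.4% and 13.2% of all genes. The 0 lower calls without fibronectin compare with 2 subunits with a negative log2 fold change at an unadjusted p under 0.05, Itgb5 and Itgav, both of which DESeq2 called lower. The median log2 fold change of the 8 subunits was -0.06 on each coating, and that of all genes tested was 0.0090 without and -0.0038 with fibronectin.

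Itgb7, which pairs with alpha4 and is best known from lymphocytes that home to the gut, was the subunit that differed most between groups. Its levels were 9.82, 10.7 and 12.1 FPKM in the 3 libraries of IgG without fibronectin and 16.5, 13.6 and 15.0 FPKM in anti-ITGA5 without fibronectin. On fibronectin they were 14.0, 14.6 and 15.8 FPKM in IgG and 17.6, 18.5 and 21.2 FPKM in anti-ITGA5. The antibody groups did not overlap on either coating, and anti-ITGA5 was the higher in both. Neutralization gave a log2 fold change of 0.48 (standard error 0.0905, edgeR adjusted p = 0.00424) without fibronectin. On fibronectin it was 0.37 (standard error 0.0762, edgeR adjusted p = 0.00329). Both calls were lost in the limma fit of log2(FPKM + 1) that kept low genes, at 0.44 and 0.35 (adjusted p = 0.0731 and 0.0567). The 4 lymphocyte markers measured summed to at most 0.481 FPKM in any library, with Cd3g at 0 and Cd3e at no more than 1 count in every library, and Cd79a at no more than 13. Of the mast cell markers, Ms4a2 and Fcer1a were at 0 in every library and Cpa3 at no more than 3 counts.

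Fibronectin coating was compared in the same way, first in the IgG groups and then in the anti-ITGA5 groups. In IgG, Itgb7 was the only subunit called, at 0.44 on the log2 scale (standard error 0.0774, edgeR adjusted p = 0.0178), with 3 of 3 fibronectin libraries above all 3 libraries without coating. Of all genes tested there, 0.325% were called higher and 0.124% lower. The 0 lower calls among the subunits stood beside 3 with an unadjusted p under 0.05, Itgav, Itga4 and Itga6, and DESeq2 called these same 3 lower. The Itgb7 call was lost when replicate 1 (edgeR adjusted p = 0.204) or 2 (0.0655) of IgG without fibronectin or replicate 1 (0.0604) or 3 (0.0766) of IgG with fibronectin was left out. It was also lost in 1 edgeR fit of all 12 libraries (adjusted p = 0.142) and with limma on log2(FPKM + 1) (0.198), on log2(FPKM + 0.1) (0.1985) and on log2(FPKM + 1) without filter (0.342). Its log2 fold change stayed between 0.37 and 0.52 when any 1 library was left out. DESeq2 gave no adjusted p for Itgb7 in this comparison. The IgG groups served as the control in more than 1 comparison, so the values for Itgb7 are not independent of each other.

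In the anti-ITGA5 groups the log2 fold change of Itgb7 with fibronectin was 0.33 (standard error 0.0896, edgeR adjusted p = 0.979), with the 3 coated libraries again above the 3 uncoated. edgeR called 0% of genes higher and 0% lower in this comparison, with 461 genes at an unadjusted p under 0.05, among them Itgb7 and Itgb3, while DESeq2 called 1 gene lower and 4 higher and none of the 8 subunits. The interaction, the difference between the antibody effects on the coatings, was -0.11 on the log2 scale for Itgb7 (standard error 0.129, edgeR adjusted p = 0.9997). No subunit passed the interaction test or had an unadjusted p under 0.05 in it. edgeR called 0.0223% of genes lower and 0% higher for the interaction, with 386 genes at an unadjusted p under 0.05, and DESeq2 called 3 lower and 1 higher. With the coatings averaged, Itgb7 rose by a log2 fold change of 0.42 upon ITGA5 neutralization (standard error 0.0634, edgeR adjusted p = 5.4e-05), and with the antibodies averaged it rose by 0.38 on fibronectin (standard error 0.0634, edgeR adjusted p = 0.0148). The second call was lost when leaving out replicate 1 (edgeR adjusted p = 0.0593) or 2 (0.0547) of IgG on uncoated dishes or replicate 3 of IgG on fibronectin (0.05003, just above the threshold), and with limma (0.0681 to 0.235 over 3 fits). Averaging over antibodies, 0.141% of all genes were called higher on fibronectin and 0.00743% lower, and of the subunits 1 and 0. In that fit 4 subunits had a negative log2 fold change at an unadjusted p under 0.05 (Itgav, Itga4, Itga6 and Itgb3), of which DESeq2 called Itga6.

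**Figure D2:**
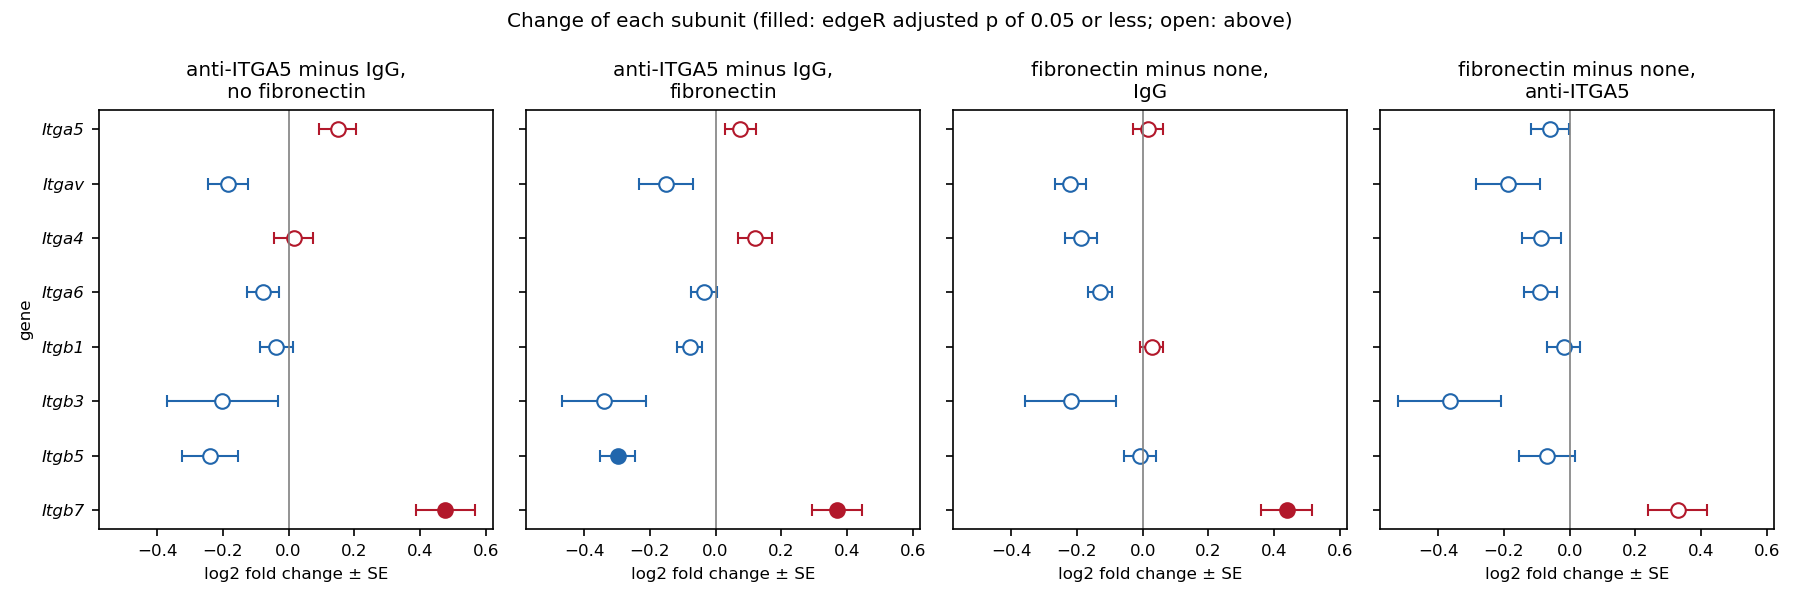
log2 fold change with its standard error (x axis) of the 8 subunits (y axis) in the 4 pairwise comparisons, filled where the edgeR adjusted p was 0.05 or less. Itgb7 lies at 0.33 to 0.48 in all 4 panels and is filled in 3 of them, and Itgb5 is filled at -0.30 with fibronectin.

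Itgb5, which pairs with alphav alone and gives a vitronectin receptor that takes part in the uptake of apoptotic cells, moved the other way. Without fibronectin its levels were 67.4, 67.1 and 74.3 FPKM in IgG and 59.0, 50.7 and 66.5 FPKM in anti-ITGA5. With fibronectin they were 72.3, 65.1 and 71.2 FPKM in IgG and 56.2, 53.8 and 59.8 FPKM in anti-ITGA5. Every anti-ITGA5 library lay below every IgG library on the same coating, by a narrow margin without fibronectin. On fibronectin Itgb5 fell by 0.30 on the log2 scale (standard error 0.0519, edgeR adjusted p = 0.00107). Without it the log2 fold change was -0.24 (standard error 0.0842, edgeR adjusted p = 0.0692), and it was called at -0.34 (edgeR adjusted p = 0.0157) without anti-ITGA5 without fibronectin replicate 3, but was -0.15 (0.0536) without replicate 2 of that group. Averaged over coatings the fall was 0.27 (standard error 0.0531, edgeR adjusted p = 0.000678), and fibronectin itself gave -0.0073 in IgG and -0.07 in anti-ITGA5, neither called.

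Itgb3, the other vitronectin partner of alphav and the beta subunit of the platelet fibrinogen receptor, was low throughout. Its levels were 1.36, 1.92 and 1.47 FPKM in IgG and 1.18, 1.69 and 1.29 FPKM in anti-ITGA5 without fibronectin. With fibronectin they were 1.31, 1.55 and 1.22 FPKM in IgG and 1.16, 1.04 and 1.04 FPKM in anti-ITGA5. The antibody groups overlapped without fibronectin and were apart with it. The log2 fold changes were -0.20 (standard error 0.17, edgeR adjusted p = 0.45) and -0.34 (standard error 0.129, edgeR adjusted p = 0.0687), and the average over coatings was -0.27 (standard error 0.109, edgeR adjusted p = 0.0589). Leaving out 1 library moved the value without fibronectin between -0.36 and -0.04, the latter without IgG replicate 2, and the value with it between -0.41 and -0.24, with none called. The average passed the threshold without IgG without fibronectin replicate 1 (-0.32, edgeR adjusted p = 0.0317) or anti-ITGA5 without fibronectin replicate 2 (-0.35, 0.00897), and also when all genes with at least 1 count were tested (-0.27, 0.0294). The 6 megakaryocyte and platelet markers, a sum made up almost wholly by Pf4, came to 516 to 637 FPKM in IgG and 362 to 497 FPKM in anti-ITGA5 without fibronectin, and to 545 to 699 against 495 to 511 FPKM with it. Pf4 and Ppbp were called lower upon neutralization on both coatings, and Gp1ba, at 2 to 16 counts per library, was called higher on both. Itga2b, at 11 to 26 counts per library, was not called. Gp9 had 0 to 8 counts per library and Gp1bb was at 0 in every library. The 6 osteoclast markers summed to 4.13 to 5.25 FPKM in IgG and 3.00 to 4.21 FPKM in anti-ITGA5 without fibronectin, and to 5.96 to 7.34 against 3.09 to 5.74 FPKM with it. Of these, Acp5 was called lower upon neutralization with fibronectin (-0.93, edgeR adjusted p = 0.00736), and Acp5 and Ctsk were called lower averaged over coatings (-0.65 and -0.52, edgeR adjusted p = 0.0119 and 0.0125). Calcr was at 0 in every library. Oscar had 0 to 4, Ocstamp 1 to 13 and Dcstamp 3 to 15 counts per library, none of them called. The part of either cell type in the Itgb3 values was not tested. Itgb5 transcripts exceeded those of Itgb3 per length by a mean of 43.9 to 52.7 times in the 4 groups.

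Itgav, the alpha subunit that pairs with beta3 and beta5, measured 28.5, 25.1 and 26.9 FPKM in IgG and 23.1, 24.6 and 22.9 FPKM in anti-ITGA5 without fibronectin. With fibronectin it measured 23.1, 22.1 and 24.2 FPKM in IgG and 21.2, 17.6 and 23.8 FPKM in anti-ITGA5, where the groups overlapped, while the groups without fibronectin were apart. Without and with fibronectin the antibody gave log2 fold changes of -0.18 (standard error 0.0613, edgeR adjusted p = 0.0562) and -0.15 (standard error 0.0824, edgeR adjusted p = 0.201). Averaged over coatings Itgav fell by 0.17 (standard error 0.057, edgeR adjusted p = 0.0274). This last call was lost in 5 of the 12 fits that each left out 1 library: the edgeR adjusted p was 0.0736 or 0.0533 when replicate 1 or 3 of IgG on uncoated dishes was left out, 0.0522 for replicate 1 of anti-ITGA5 on uncoated dishes, 0.0639 for replicate 3 of IgG on fibronectin and 0.0555 for replicate 2 of anti-ITGA5 on fibronectin. It was also lost with total counts (-0.13, edgeR adjusted p = 0.0928) and with limma without filter (-0.17, 0.105). Conversely, Itgav was called in single comparisons when a library was left out: without fibronectin at -0.23 (edgeR adjusted p = 0.0497) without IgG replicate 2 and at -0.22 (0.00245) without anti-ITGA5 replicate 2, and with fibronectin at -0.25 (0.00551) without anti-ITGA5 replicate 3, where the value was only -0.04 (0.66) without anti-ITGA5 replicate 2. The value for fibronectin in IgG, -0.22 (standard error 0.0472, edgeR adjusted p = 0.0544), was close to the threshold as well and passed at -0.27 (0.0206) without IgG without fibronectin replicate 2. The reads of Itgav overlap in position with Gm13684 and Dnmt3l-ps1 on the other strand, which held 0 to 23 and 0 to 16 counts.

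Itga5, the target of the antibody, measured 44.8, 44.5 and 49.1 FPKM in IgG and 53.1, 50.4 and 49.4 FPKM in anti-ITGA5 without fibronectin. With fibronectin it measured 45.5, 46.1 and 49.0 FPKM in IgG and 48.7, 47.4 and 52.2 FPKM in anti-ITGA5. The antibody groups were barely apart without fibronectin and overlapped with it. The log2 fold change was 0.15 (standard error 0.0569, edgeR adjusted p = 0.0906) and 0.07 (standard error 0.0478, edgeR adjusted p = 0.273) on the respective coatings. With the coatings averaged Itga5 rose by 0.11 (standard error 0.0381, edgeR adjusted p = 0.0273). That call was lost when leaving out replicate 1 (edgeR adjusted p = 0.0740) or 2 (0.0706) of IgG or replicate 1 (0.0720) of anti-ITGA5 on uncoated dishes, or replicate 1 of IgG (0.0590) or 3 of anti-ITGA5 (0.0620) on fibronectin, and with limma without filter (0.0671). Without anti-ITGA5 without fibronectin replicate 2 the comparison on uncoated dishes gave 0.15 (edgeR adjusted p = 0.0338). Averaged over coatings, 2 subunits rose (Itgb7, Itga5) and 2 fell (Itgb5, Itgav), beside 20.3% of all genes called higher and 19.2% lower.

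Itgb1, the partner of alpha5, did not pass the test in any comparison. In the libraries without fibronectin it measured 278, 282 and 264 FPKM in IgG and 273, 256 and 270 FPKM in anti-ITGA5. On fibronectin it measured 284, 284 and 275 FPKM in IgG and 275, 266 and 258 FPKM in anti-ITGA5, with less than 1 FPKM between the lowest IgG and the highest anti-ITGA5 library. The groups overlapped without fibronectin. The log2 fold changes upon ITGA5 neutralization were -0.04 (edgeR adjusted p = 0.661) and -0.08 (edgeR adjusted p = 0.138). The lowest and the highest of the 12 libraries differed by 1.11 times, the narrowest range of the 8 subunits, where that of Itgb7 was 2.16 times.

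Itga4, the partner of beta7, measured 15.1 to 16.8 FPKM in IgG and 15.3 to 16.6 FPKM in anti-ITGA5 without fibronectin, and 13.5 to 15.2 against 14.6 to 16.0 FPKM with fibronectin. Its groups overlapped in all 4 pairwise comparisons and the edgeR test used throughout called it in none, with log2 fold changes upon ITGA5 neutralization of 0.02 and 0.12 (edgeR adjusted p = 0.881 and 0.105). DESeq2 called it lower with fibronectin in IgG (-0.19, DESeq2 adjusted p = 0.02095), as did edgeR on all genes with at least 1 count (-0.18, 0.00336), and edgeR with total counts called it higher upon neutralization on fibronectin (0.16, 0.0386). Leaving out IgG with fibronectin replicate 2 brought it past the threshold in both comparisons that use this library, at 0.17 for the antibody (edgeR adjusted p = 0.041) and -0.24 for fibronectin in IgG (0.0211). Itga6, the laminin receptor subunit, measured 43.4 to 45.2 FPKM in IgG without fibronectin, above all libraries of the other groups, which lay between 38.6 and 42.0 FPKM. Its log2 fold change with fibronectin in IgG was -0.13 (edgeR adjusted p = 0.173), and the edgeR test used throughout called it in no comparison, whereas DESeq2 called it lower there (-0.13, DESeq2 adjusted p = 0.0403) and with the antibodies averaged (-0.10, 0.0208). Itga4 overlaps Cerkl on the other strand, which held 20 to 29 counts, and the 4 genes within Itga6 held at most 2.

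Counted by whether the FPKM of the 2 groups overlapped, the antibody groups were apart for 5 of the 8 subunits without fibronectin (2 higher, 3 lower) and for 4 with fibronectin (1 higher, 3 lower). Over all genes tested 38.2% and 42.4% were apart in these comparisons. The coated and uncoated groups were apart for 3 of 8 subunits in IgG and in anti-ITGA5 (1 higher and 2 lower in each), where 15.4% and 9.74% of all genes were apart. In both fibronectin comparisons Itgb7 was the subunit that was higher. With 3 libraries against 3, an exact 2-sided permutation test of a single gene cannot go below 0.10.

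The balance among the alpha subunits and among the beta subunits was described by shares of summed FPKM. Itga5 made up 34.6% ± 1.72 (SD, n = 3) of the 4 alpha subunits in IgG and 38.5% ± 0.863 (SD, n = 3) in anti-ITGA5 without fibronectin, and 37.6% ± 0.601 (SD, n = 3) against 39.5% ± 0.771 (SD, n = 3) with fibronectin. The antibody groups did not overlap on either coating. Itgb7 made up 3.05% ± 0.351 of the 4 beta subunits in IgG without fibronectin, 4.40% ± 0.285 in anti-ITGA5 without fibronectin, 4.04% ± 0.291 in IgG with fibronectin and 5.58% ± 0.611 in anti-ITGA5 with fibronectin (SD, n = 3 each). Itgb1 held 76.6% to 78.1% of the beta subunits as group means. The mean ratio of Itgb7 to Itga4 per length was 0.680, 0.931, 1.05 and 1.24 in the groups in that order. Itgb7 lay below Itga4 in all libraries without fibronectin and above it in all 3 libraries of anti-ITGA5 with fibronectin. Which of them is higher depends on the gene length, since with the longest transcripts the means over the 12 libraries were 15.4 FPKM for Itgb7 and 22.1 FPKM for Itga4. The mean ratio of Itgb1 to Itga5 was 5.97 and 5.23 in IgG and anti-ITGA5 without fibronectin and 6.00 and 5.40 with it. These shares and ratios inherit the gene lengths above, and their differences between groups were not tested.

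**Figure D3:**
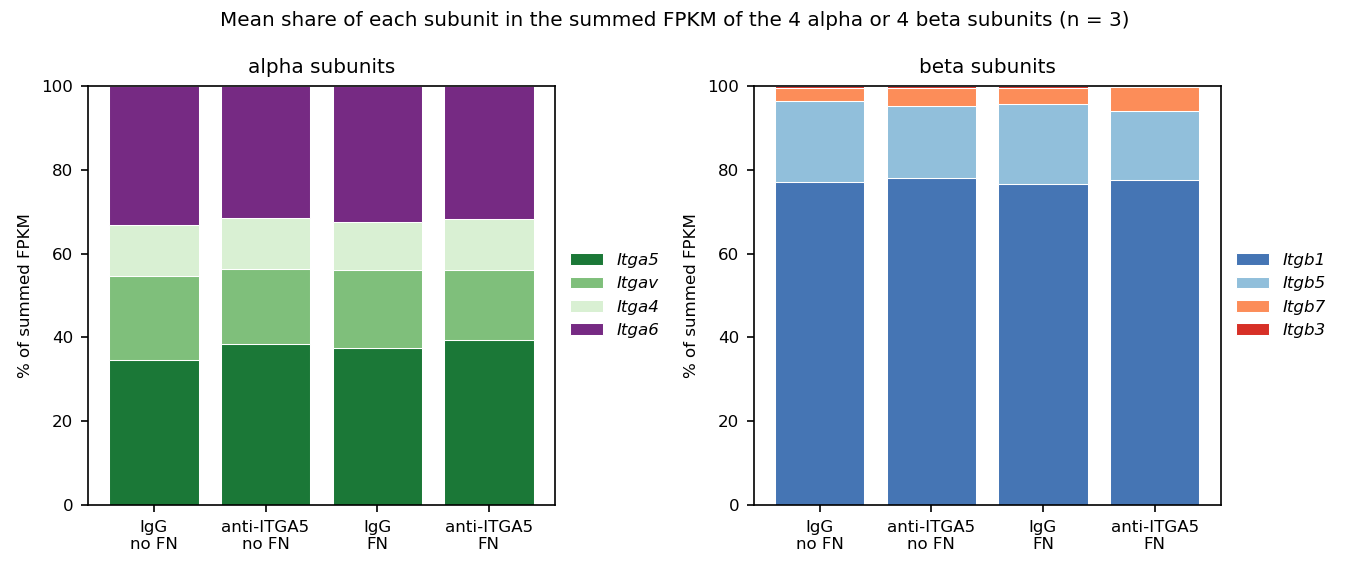
Mean share (y axis, % of summed FPKM) of each subunit among the 4 alpha subunits (left) and the 4 beta subunits (right) in the 4 groups (x axis), n = 3. Itgb1 makes up 76.6% to 78.1% of the beta subunits, Itgb7 goes from 3.05% to 5.58%, and Itgb3 is below 0.5%.

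The reference promoter windows of the 4 subunits called upon ITGA5 neutralization with the coatings averaged are given here, because these genes moved in opposite directions in the same bulk libraries. Each window is the RefSeq sequence from 250 bases before to 50 bases after the gene's start in GRCm38.p6, read 5′ to 3′ on the strand of the gene. Windows were present for 6 of the 8 subunits, not for Itga6 and Itgb3. Capitals mark matches, on either strand, to GGGCGG (the GC box, CCGCCC on the other strand) or GAGGAA (the purine-rich core bound by PU.1, the ETS factor of macrophages, TTCCTC on the other strand).
Itgb7, chr15:102231886-102232185, minus strand: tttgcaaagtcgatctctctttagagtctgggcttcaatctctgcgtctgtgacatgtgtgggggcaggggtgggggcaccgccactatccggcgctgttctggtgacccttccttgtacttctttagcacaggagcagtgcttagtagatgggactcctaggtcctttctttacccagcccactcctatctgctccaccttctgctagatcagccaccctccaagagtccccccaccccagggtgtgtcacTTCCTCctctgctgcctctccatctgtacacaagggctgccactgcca
Itgb5, chr16:33829415-33829714, plus strand: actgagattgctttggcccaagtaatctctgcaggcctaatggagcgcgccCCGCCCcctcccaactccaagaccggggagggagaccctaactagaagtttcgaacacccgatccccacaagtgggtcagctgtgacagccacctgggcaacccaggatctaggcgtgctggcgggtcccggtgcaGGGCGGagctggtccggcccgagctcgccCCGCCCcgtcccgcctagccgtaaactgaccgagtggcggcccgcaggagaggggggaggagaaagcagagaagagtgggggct
Itgav, chr2:83724147-83724446, plus strand: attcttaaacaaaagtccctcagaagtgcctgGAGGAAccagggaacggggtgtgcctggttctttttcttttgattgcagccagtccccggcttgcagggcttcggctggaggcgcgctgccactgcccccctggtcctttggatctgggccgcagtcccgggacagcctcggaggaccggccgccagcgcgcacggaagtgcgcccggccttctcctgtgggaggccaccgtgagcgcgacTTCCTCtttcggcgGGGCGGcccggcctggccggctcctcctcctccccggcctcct
Itga5, chr15:103366742-103367041, minus strand: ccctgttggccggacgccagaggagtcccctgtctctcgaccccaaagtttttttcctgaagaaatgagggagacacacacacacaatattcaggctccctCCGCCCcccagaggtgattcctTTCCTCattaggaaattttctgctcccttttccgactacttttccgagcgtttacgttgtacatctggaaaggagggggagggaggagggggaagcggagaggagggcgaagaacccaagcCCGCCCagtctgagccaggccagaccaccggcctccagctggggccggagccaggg

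The GC box was found 3 times in the Itgb5 window, 2 times in that of Itga5, 1 time in that of Itgav and not in that of Itgb7, and 35.7% of the 32851 windows of all genes held it. GAGGAA occurred 1 time in the windows of Itgb7 and Itga5, 2 times in that of Itgav and not in that of Itgb5, against 28.3% of all windows with a match. None of the 4 windows held TGANTCA (the AP-1 site, in 7.81% of all windows), TATAAA (13.6%) or CCAAT (37.4%), searched on both strands, and the matches found did not overlap each other. The GC content was 56.3% for Itgb7, 65.7% for Itgb5, 67.3% for Itgav and 58.7% for Itga5, with a median of 52.7% over all windows. The windows of Itgb1 and Itga4, which were not called, held the GC box 1 time each. GAGGAA occurred 1 time in that of Itgb1 and not in that of Itga4, and their GC content was 67.3% and 64.3%. In GRCm38, Itga5 and Itgb7 both lie on the minus strand of chromosome 15, at chr15:103344286-103366763 and chr15:102215995-102231944. The other subunits lie on plus strands: Itga6 at chr2:71745616-71858416, Itga4 at chr2:79255426-79333123, Itgav at chr2:83724397-83806916, Itgb1 at chr8:128685654-128733200, Itgb3 at chr11:104608000-104670476 and Itgb5 at chr16:33829665-33949338. A match is a run of letters and was not tested for binding.

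Among the 19 other integrin subunits, 12 could be tested in the fit of all libraries, and with the coatings averaged 5 fell and 1 rose upon ITGA5 neutralization, with a median log2 fold change of -0.22 beside 0.0020 for all genes, of which 19.2% were called lower and 20.3% higher. Itgb2, the beta subunit of the leukocyte integrins, stood above Itgb1, with 315 FPKM ± 8.11 (SD, n = 3) for IgG on uncoated dishes against 273 FPKM ± 11.3 (SD, n = 3) for anti-ITGA5. It fell by 0.20 (edgeR adjusted p = 0.0186) without and by 0.30 (edgeR adjusted p = 7.19e-05) with fibronectin, and rose by 0.19 on fibronectin in IgG (edgeR adjusted p = 0.0178). Its partner Itgam, the alpha subunit of the complement receptor Mac-1, fell by 0.47 and 0.31 on the respective coatings (edgeR adjusted p = 0.000462 and 0.00011). Itgax, the alpha subunit of the dendritic cell and macrophage antigen CD11c, rose by 0.94 and 0.44 (edgeR adjusted p = 0.0123 and 0.0264) from a low level of 0.978 FPKM ± 0.213 (SD, n = 3) in IgG without fibronectin. Itga8, an RGD-binding partner of beta1, fell by 0.40 (edgeR adjusted p = 0.00716) upon ITGA5 neutralization without fibronectin and by 0.42 (edgeR adjusted p = 0.0424) with fibronectin in IgG. Itgal, the alpha subunit of LFA-1, fell by 0.28 (edgeR adjusted p = 0.0396) upon ITGA5 neutralization without fibronectin. With the coatings averaged, Itga11 and Itga1, both collagen receptor subunits, were called lower at -1.47 and -0.99 (edgeR adjusted p = 0.044 and 0.00976) from at most 18 and 32 counts per library.

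**Figure D4:**
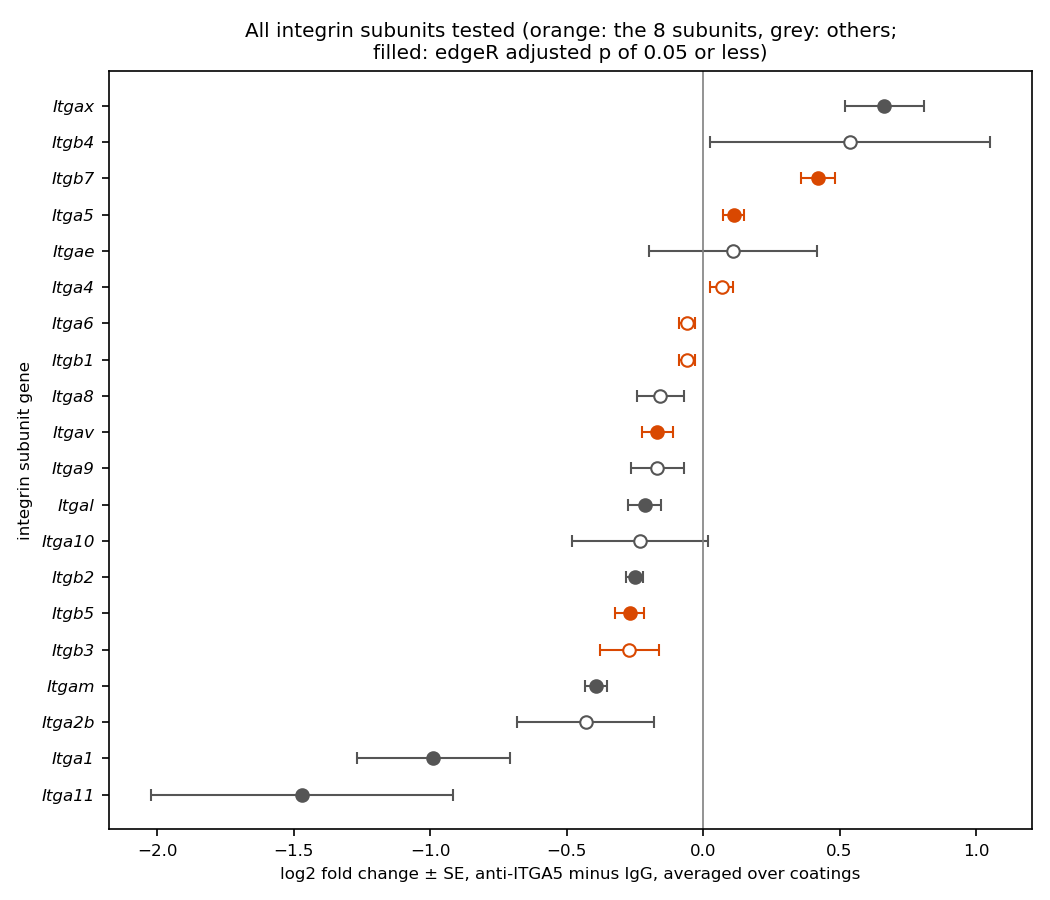
log2 fold change with its standard error (x axis) upon ITGA5 neutralization, averaged over coatings, of the 8 subunits (orange) and the 12 other integrin subunits tested (grey), filled where the edgeR adjusted p was 0.05 or less. Itgb7 at 0.42 is exceeded by Itgax at 0.66, and Itgb5 at -0.27 lies beside Itgb2 at -0.25.

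The ligands of these receptors were mostly low, and 18 of the 33 listed could be tested in the fit of all libraries. Fn1, which encodes fibronectin itself, averaged 1.87 FPKM ± 0.491 (SD, n = 3) for IgG and 2.92 FPKM ± 0.591 (SD, n = 3) for anti-ITGA5 without fibronectin. It rose upon ITGA5 neutralization by 0.66 (edgeR adjusted p = 0.0227) without and 0.61 (edgeR adjusted p = 0.0101) with fibronectin, while the coating gave -0.07 in IgG (edgeR adjusted p = 0.927). Spp1, which encodes osteopontin, a ligand of the alphav and alpha4 integrins, was among the most abundant transcripts, at 1817 FPKM ± 87.6 (SD, n = 3) in IgG without and 2142 FPKM ± 35.2 (SD, n = 3) with fibronectin. It rose by 0.23 on fibronectin in IgG (edgeR adjusted p = 0.0118) and fell by 0.13 upon ITGA5 neutralization on fibronectin (edgeR adjusted p = 0.0386). Thbs1, the matrix glycoprotein thrombospondin that alphav integrins bind, fell by 0.65 and 0.73 upon ITGA5 neutralization (edgeR adjusted p = 0.0182 and 0.00297). On fibronectin Cyr61, a matricellular ligand at 3 to 17 counts per library, and Vwf were called lower as well, at -1.17 and -0.30 (edgeR adjusted p = 0.0338 and 0.002). Vtn, which encodes vitronectin, had at most 1 count in any library, Vcam1 at most 12 and Madcam1 at most 1. In all, 1 ligand was called lower and 1 higher without fibronectin upon ITGA5 neutralization, and 4 lower and 1 higher with it, with medians of -0.05 over 16 and -0.13 over 17 ligands tested. Over all genes 9.79% were lower and 11.0% higher without fibronectin and 13.2% and 14.4% with it.

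Genes that switch integrins on or off were called in both directions, with 5 of 15 tested lower and 3 higher upon ITGA5 neutralization without fibronectin and 1 lower and 5 higher with it (median log2 fold change 0.03 and -0.00034). Of all genes, 9.79% were called lower and 11.0% higher without fibronectin, and 13.2% and 14.4% with it. Dok2, an adaptor that can compete with talin for beta tails, rose by 0.34 and 0.32 (edgeR adjusted p = 0.00147 and 0.000293), and the actin crosslinker Flna, which also competes with talin, rose by 0.28 and 0.20 (edgeR adjusted p = 0.00905 and 0.0171). Krit1, which binds the beta1 regulator encoded by Itgb1bp1, fell by 0.39 on fibronectin and by 0.28 without (edgeR adjusted p = 0.00038 and 0.0108). Rasgrp2, the exchange factor for Rap1, fell by 0.58 (edgeR adjusted p = 0.0459) and Dok1 by 0.29 (edgeR adjusted p = 0.0424) without fibronectin. On fibronectin the integrin inhibitor Sharpin rose by 0.23 (edgeR adjusted p = 0.0128) and the talin gene Tln2 by 0.79 (edgeR adjusted p = 0.0378), the latter from 0.102 FPKM ± 0.0382 (SD, n = 3) in IgG.

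Of the kinases and adaptors that gather at integrin tails, 3 of 16 tested were lower and 0 higher without fibronectin, and 4 lower and 1 higher with it (median log2 fold change -0.10 and -0.09), beside the same shares of all genes, 9.79% and 11.0% without and 13.2% and 14.4% with fibronectin. The focal adhesion adaptor Pxn fell by 0.30 and 0.21 (edgeR adjusted p = 0.00448 and 0.00768), and the tensin Tns3 by 0.18 and 0.19 on the respective coatings (edgeR adjusted p = 0.0276 and 0.00532). The tyrosine kinase Syk fell by 0.17 without and 0.24 with fibronectin (edgeR adjusted p = 0.0389 and 0.00128), and the Src family kinase Lyn rose by 0.15 (edgeR adjusted p = 0.0166) with it. Among the 11 endocytosis and recycling genes, 2 were lower and 0 higher without fibronectin, and 2 lower and 2 higher with it (median log2 fold change 0.05 and 0.07), against those same shares. Numb, an endocytic adaptor for integrins, fell by 0.25 and 0.21 (edgeR adjusted p = 0.0109 and 0.0105), and the recycling GTPase Rab11a by 0.18 and 0.15 (edgeR adjusted p = 0.0438 and 0.0324). The clathrin adaptor Dab2 rose by 0.19 upon ITGA5 neutralization on fibronectin (edgeR adjusted p = 0.00173) and fell by 0.18 with fibronectin in IgG (edgeR adjusted p = 0.0297). Snx17, which returns beta1 integrins from endosomes, rose by 0.17 on fibronectin (edgeR adjusted p = 0.0124).

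Of the 8 membrane proteins that associate laterally with these integrins, 2 were lower and 1 higher without fibronectin and 5 lower and 2 higher with it (median log2 fold change -0.06 and -0.25), where 9.79% of all genes were lower and 11.0% higher without fibronectin and 13.2% and 14.4% with it. The syndecans, which bind the heparin sites of fibronectin, differed in direction. Sdc4, the syndecan of focal adhesions, rose by 0.29 and 0.30 (edgeR adjusted p = 0.0214 and 0.00128), and Sdc3 fell by 0.51 and 0.31 (edgeR adjusted p = 0.000188 and 0.0221). The tetraspanin Cd9 fell by 0.18 and 0.28 upon ITGA5 neutralization (edgeR adjusted p = 0.0285 and 0.000742) and rose by 0.17 with fibronectin in IgG (edgeR adjusted p = 0.0433). On fibronectin Sdc1 fell by 0.36 (edgeR adjusted p = 0.0245) and the tetraspanin Cd151 by 0.33 (edgeR adjusted p = 0.000708).

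Across the 12 libraries the subunits did not follow a common pattern. Pearson's r of log2 CPM (counts scaled to library size), given as a description over libraries that share their groups, was highest for Itgav with Itga6 (0.83) and lowest for Itga6 with Itgb7 (-0.83). The second of these was -0.14 once each group's mean had been subtracted, so it rested on differences between groups, whereas Itgav with Itga6 was then 0.53. Itga5 and its partner Itgb1 ran in opposite directions (-0.73, and -0.69 within groups). Itga5 with Itgb7 gave 0.61 over all libraries and 0.82 within groups, and Itgb5 with Itgb7 went from -0.50 to 0.55. Itga4 with its partners gave -0.23 for Itgb1 and -0.27 for Itgb7.

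**Figure D5:**
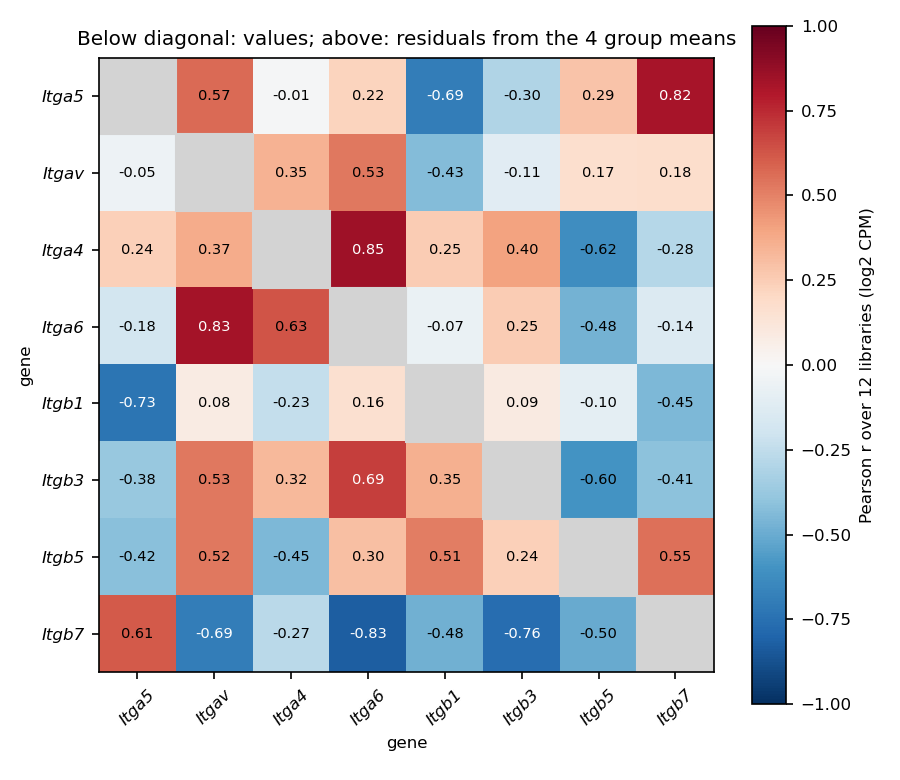
Pearson's r over the 12 libraries (colour scale from -1 to 1) between each pair of the 8 subunits (both axes), below the diagonal for the values and above it for the residuals from the 4 group means. Itga6 with Itgb7 is -0.83 below the diagonal and -0.14 above it, and Itga4 with Itga6 is 0.63 and 0.85.

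Among 10575 genes with a mean of at least 1 FPKM, those whose pattern over the 12 libraries was most like that of Itgb7 were Pcbd2, Clec4e and Rpp14 (r = 0.90 each). For Itgb5 they were Ncf1, Map4k3 and Rnf44 (0.96 each), and for Itgb3 Wdr7, Gtf3c1 and Ppp4r1l-ps (0.93 to 0.94). Itgav was closest to Peak1 (0.98), Osbpl7 (0.94) and Jmjd1c (0.93), and Itga6 to Nrp1 (0.96), Zc3hav1l (0.91) and Osbpl7 (0.90). Itga5 was closest to Pgs1 (0.92), Xylb (0.91) and Nepro (0.91), Itga4 to R3hdm2, Atp13a3 and Ptbp3 (0.93 each), and Itgb1 to Acbd6, Arl10 and Fam174a (0.91 to 0.92). Each of these is the top of a ranking over many genes in 12 libraries and carries no test.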

How the data were processed

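Poly(A) RNA of 12 BMM libraries (4 groups of 3) was sequenced by the study, which describes its experiments as biologically independent. If replicates share cells, p-values measure only the spread between these samples. Per the submitters' processing notes, reads were aligned with TopHat2 2.0.9 to GRCm38.p6 and counted with HTSeq 0.6.1, and Cufflinks 2.1.1 is listed as well. The strand setting and annotation release are not given in the sources used here. The authors deposited raw counts per gene and FPKM, and for 100% of genes with at least 100 counts the deposited FPKM matched, within 0.1%, count / (gene length × 1 total per library). That total is not the sum of the counts, of which it was 0.977 to 1.06 times, and how the authors set it is not given in the sources used here. Intervals were not derived from counts, and no value column was left out.

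Counts were tested with edgeR 4.0.16 in R 4.3.3 (TMM, filterByExpr with a minimum count of 10 and a minimum total of 15, quasi-likelihood test, Benjamini-Hochberg adjustment over all genes tested, threshold 0.05). Each pairwise comparison used its 2 groups, and the interaction and averages used all 12 libraries. FPKM served for levels, shares and overlap of groups. Correlations used edgeR's log2 counts scaled to library size (log2 CPM, prior count 2). The edgeR scripts were tested on simulated data. Alternatives were DESeq2 1.42.0 and its size factors, total counts in place of TMM, other count filters, limma 3.58.1 on log2(FPKM + 1) or log2(FPKM + 0.1), a replicate block, 1 fit of all libraries, leaving out each library, and, added after seeing the data, the longest transcript as gene length.

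All members were described. From the other gene lists, at most 4 called genes per list and comparison were named in order of absolute change, with Fn1, Vtn, Spp1 and Vcam1 always reported. A few more were named after their values were seen. Members and lists were chosen with earlier results of these data known. Promoter windows came from the RefSeq table of GRCm38.p6. One marker of the lymphocyte list is not reported here.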

Additional observations from a re-analysis of the deposited data

How the results depend on the processing

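The direction of Itgb7, higher upon ITGA5 neutralization and on fibronectin, was kept under every alternative run, and so was the negative direction of Itgb5 upon neutralization. Counts of subunits called moved as follows. Lower upon neutralization without fibronectin (0): 2 with DESeq2, 1 with genes of at least 1 count, the replicate block or 1 fit of all libraries, and 0 to 1 when leaving out a library. Higher there (1): 2 with total counts, 0 with limma without filter, 1 to 2 when leaving out a library. With fibronectin, lower (1): 2 with genes of at least 1 count, 3 with the block, 1 to 2 when leaving out a library, and higher (1): 2 with total counts or the block, 0 with limma without filter, 1 to 2 when leaving out a library. Fibronectin in IgG, lower (0): 3 with DESeq2 or the block, 1 with total counts, 2 with genes of at least 1 count, 0 to 1 when leaving out a library, and higher (1): 0 with the 3 limma fits or 1 fit of all libraries, 0 to 1 when leaving out a library. Fibronectin in anti-ITGA5, higher (0): 1 with genes of at least 1 count. Averaged over coatings, lower (2): 1 with total counts or limma without filter, 3 with genes of at least 1 count or the block (both adding Itgb3, at -0.27 and -0.26), 1 to 3 when leaving out a library, and higher (2): 1 with limma without filter, 1 to 2 when leaving out a library. Fibronectin averaged, lower (0): 1 with DESeq2 or genes of at least 1 count, and higher (1): 0 with the 3 limma fits, 0 to 1 when leaving out a library. The cause of these shifts was not tested. The replicate numbers were not shown to pair libraries, since same-numbered deviations correlated at -0.0196 to 0.149. With the block edgeR further called Itgb5 lower upon neutralization without fibronectin (-0.25, adjusted p = 0.0143), Itgav (-0.16, 0.00581) and Itgb3 (-0.34, 0.0423) lower and Itga4 higher (0.12, 0.0391) with it, and Itgav (-0.22, 2.09e-05), Itga4 (-0.19, 0.000922) and Itga6 (-0.13, 0.0128) lower with fibronectin in IgG.

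Small changes turned sign. With total counts Itgb1 was 0.0030 upon neutralization without fibronectin and -0.013 with fibronectin averaged, Itga6 was 0.0040 upon neutralization with fibronectin, and Itga5 was -0.0021 on fibronectin in IgG. With genes of at least 1 count Itgb1 was 0.0023 on fibronectin in anti-ITGA5. Leaving out a library moved Itga4 upon neutralization without fibronectin from -0.025 to 0.053, and on fibronectin in IgG Itga5 from -0.016 to 0.067 and Itgb5 from -0.034 to 0.045. In anti-ITGA5 the range was -0.15 to 0.027 for Itgb5 and -0.036 to 0.0013 for Itgb1, in the interaction -0.060 to 0.15 for Itgav, -0.30 to 0.021 for Itgb3 and -0.15 to 0.039 for Itgb5, and with fibronectin averaged -0.036 to 0.0021 for Itga5, -0.0053 to 0.023 for Itgb1 and -0.071 to 0.014 for Itgb5.

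With the longest transcripts the mean FPKM was 54.0 for Itga5, 35.9 for Itgav, 22.1 for Itga4, 86.9 for Itga6, 291 for Itgb1 and 68.9 for Itgb5. Shares of counts in place of FPKM were 22.1% for Itga5, 23.4% for Itgav, 19.95% for Itga4 and 34.6% for Itga6 of the alpha subunits, and 80.1% for Itgb1, 0.576% for Itgb3, 16.3% for Itgb5 and 3.00% for Itgb7 of the beta subunits. The correlation of Itga6 with Itgb7 was -0.14 within groups.

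Over all genes, total counts gave 947 lower and 1832 higher upon neutralization without fibronectin (1265 and 1419 by TMM), 1264 and 2407 with it (1699 and 1866), and 1984 and 3435 averaged (2582 and 2736). Limma without filter gave 536 and 684 and, with fibronectin, 846 and 1025. Fibronectin in IgG called 16 and 42, and 42 and 86 with DESeq2, 66 and 175 with genes of at least 1 count, 2 and 5, 0 and 5 or 9 and 8 with limma, 1 and 10 in 1 fit of all libraries and 133 and 283 with the replicate block. Genes of at least 1 count gave 214 and 113 on fibronectin in anti-ITGA5, 32 and 33 for the interaction and 245 and 236 with fibronectin averaged, where edgeR as described gave 1 and 19, DESeq2 16 and 77 and the replicate block 18 and 74. Leaving out a library gave 627 to 1842 lower and 846 to 1992 higher upon neutralization without fibronectin, the lowest without IgG replicate 1 and the highest without anti-ITGA5 replicate 2, and 1113 to 1907 and 1323 to 2065 with it, the lowest without anti-ITGA5 replicate 1. Of the other libraries on uncoated dishes, leaving out IgG replicate 2 or 3 or anti-ITGA5 replicate 1 gave 786 and 1010, 674 and 893, and 754 and 1001. Fibronectin in IgG gave 3 to 24 and 6 to 77, the lowest without IgG without fibronectin replicate 1 and the highest without IgG with fibronectin replicate 2. The shares of all genes set beside the subunits move with these counts.

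Replicate numbers were not taken to pair the libraries: correlations of same-numbered deviations were -0.02 to 0.15 and not all above 0.1, although in 3 of 4 comparisons every library correlated best with its own number. With the replicate block, fibronectin in IgG called 133 genes lower and 283 higher, neutralization with fibronectin 2217 and 2321, and fibronectin averaged 18 and 74. Depth limits Itgb3, at 101 to 200 counts per library.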
